A study of Mus musculus with 18 samples.

Results

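The 47 genes described here encode the lysosome of the mouse cell: the subunits of its vacuolar proton pump, its cathepsins and other hydrolases, its membrane proteins and the TFE transcription factors. They were listed by symbol, and all 47 were found among the 23474 genes of an expression table from epididymal fat and liver. The mice were male C57BL/6J, were put on their diets at 5 weeks of age in groups of 10, and were 17 weeks old after 12 weeks of feeding. The GT group ate a high-fat diet containing 0.25% (w/w) of an ethanol extract of green tea, the HFD group ate the high-fat diet alone, and the ND group ate a normal diet. Each diet had 3 polyA RNA libraries from fat and 3 from liver, 18 in all. The labels do not tie a library to a single mouse, so p-values measure the spread between these libraries, which may be technical. Values are FPKM (fragments scaled to transcript length and to mapped fragments of the library), so levels of different genes are compared per length. Changes are log2 differences of FPKM + 1 ± SE from limma, called at a Benjamini-Hochberg adjusted p of 0.05 over all genes tested. The added 1 understates the change of genes with low FPKM.

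The vacuolar ATPase is a rotary pump that acidifies lysosomes, with a V1 sector that hydrolyses ATP in the cytosol and a V0 sector in the membrane that carries protons. Low pH activates the cathepsins, which are proteases, and the glycosidases and lipases that break down material delivered by endocytosis, phagocytosis and autophagy. TFEB, TFE3 and MITF are related transcription factors that bind E-box sequences in promoters of many lysosomal genes. In fat of obese mice, lysosome-rich macrophages are known to gather around adipocytes and to take up their lipid.

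Several libraries stood apart before any comparison. Testis markers, a list of 12 spermatid and spermatocyte genes, summed to 100338 FPKM in fat ND 1, to 3107 in fat ND 3 and to 2121 in fat HFD 1, against 17.4 to 171 in the other fat libraries. FPKM totals were 1002765 in fat ND 1 and 527904 to 608819 in the other 8, and the 10 adipocyte markers summed to 7520 in ND 1 and to 17647 or more elsewhere in fat. Epididymis markers summed to at most 20400 FPKM among ND fat libraries, 1662 among HFD and 0.77 among GT, and ND 1 held such transcripts. Fat HFD 2 held the epididymal gene Crisp1 at 1172 FPKM. In liver, muscle markers summed to 87.3 in HFD 2, 17.3 in HFD 3 and 35.7 in GT 3, against at most 3.28 in the others. Comparisons within fat were therefore run over all 9 libraries and over the 8 without ND 1. A gene that missed the threshold over 9 libraries is not thereby shown to be equal between diets. Adipocyte markers in fat and hepatocyte markers in liver matched the labelled tissue, with 10 of 10 adipocyte markers at 1 FPKM or more in every fat library and 8 or 9 of 9 hepatocyte markers in every liver library. Albumin (Alb) was listed at 0 in liver HFD 3.

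In fat, many of the listed lysosomal genes were higher on HFD than on ND. The list was chosen with earlier results of these data known, so its share of calls is no test of the genes as a set. Over 9 libraries 22 of 47 rose and 0 fell, where 5.28% of all genes were called higher and 0.371% lower. Without ND 1, 37 rose and 0 fell, against 17.8% and 9.62% of all genes. The median change was 1.54 over 9 libraries and 1.13 without ND 1, while all genes had a median of 0.13 and 0.02. All 3 HFD libraries lay above all ND libraries for 42 members over 9 libraries (21.9% of all genes) and for 44 without ND 1 (30% of all genes), and 1 member, Ctsf, lay below them without ND 1 (20.2% of all genes). Summed over the 47 genes, FPKM was 14973 to 19028 in HFD fat and 2834 to 5357 in ND fat. These are whole tissues, so a change in the number of cells of a type and one in RNA per cell cannot be told apart.

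The proton pump of HFD fat differed most in one subunit of its stalk. Atp6v0d2, the d2 form of the V0 subunit that links the membrane ring to the central stalk and is known from osteoclasts and macrophages, had 165, 164 and 196 FPKM in HFD fat, against 2.04, 1.42 and 1.16 FPKM in ND fat. The ND libraries were near 1 or 2 FPKM, and the HFD mean was 136 times the mean of ND 2 and ND 3. Its change was 6.13 ± 0.43 (adjusted p = 0.00214) over 9 libraries and 6.26 ± 0.45 (adjusted p = 0.00104) without ND 1. Atp6v0d1, the d1 form present in most cells, had 86.0, 84.2 and 90.7 FPKM in HFD fat, against 35.9, 70.6 and 52.1 in ND fat. The libraries did not overlap for d1 either, but its change of 0.76 ± 0.28 over 9 libraries did not pass (adjusted p = 0.18), and that of 0.51 ± 0.15 without ND 1 passed at an adjusted p of 0.0362.

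The make-up of the d subunit transcripts shifted with diet in fat. Atp6v0d2 made up 65.7%, 66.1% and 68.4% of the d1 and d2 FPKM in HFD fat, against 5.38%, 1.97% and 2.17% in ND fat. In GT fat the share was 59.0%, 55.0% and 33.1%, below every HFD library and above every ND library. In liver it did not exceed 7.62% in any library.

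**Figure D1:**
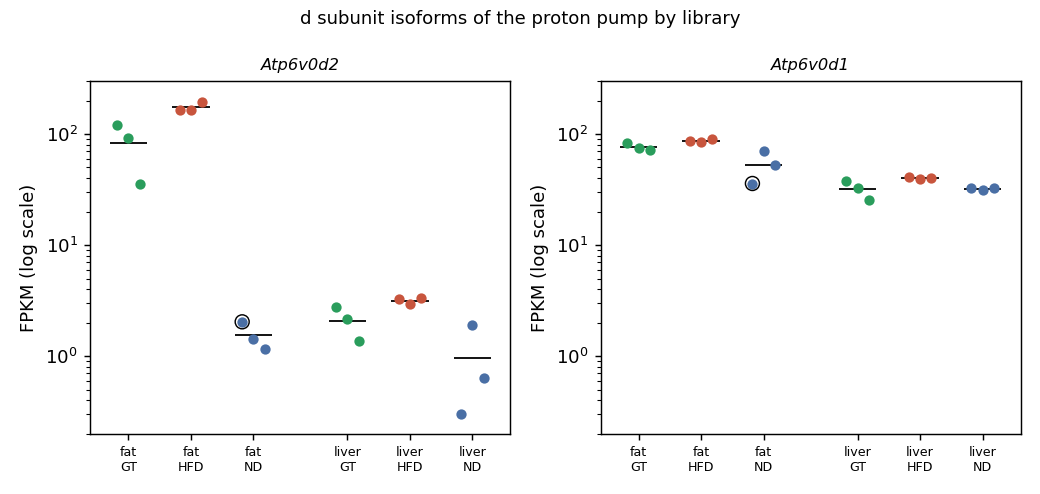
FPKM of Atp6v0d2 (left) and Atp6v0d1 (right) in each library of fat and liver, for GT, HFD and ND from left to right, on a log axis; points are libraries, lines are means of 3 and the ring marks fat ND 1. Atp6v0d2 lies at 164 to 196 FPKM in HFD fat, at 35.6 to 120 in GT fat and at 1.16 to 2.04 in ND fat, while Atp6v0d1 stays between 25.4 and 90.7 FPKM in all 18 libraries.

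The other V0 subunits also rose in HFD fat. Atp6v0a1, the large membrane subunit that holds the proton half-channels, had 176, 182 and 185 FPKM in HFD fat, against 28.1, 49.4 and 53.3 in ND fat, a change of 2.08 ± 0.30 (adjusted p = 0.00869) and of 1.797 ± 0.16 without ND 1 (adjusted p = 0.00104). The ring subunits Atp6v0c and Atp6v0b changed by 1.92 and 1.64, and by 1.55 and 1.21 without ND 1, and were called in both fits. Atp6v0e, a small membrane subunit, was called without ND 1 at 0.64 ± 0.17 and not over 9 libraries, at 0.61 ± 0.24 (adjusted p = 0.217). Atp6v0c has processed copies in the genome, and how reads were shared with them was not tested.

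In the V1 sector, the largest log2 changes were those of Atp6v1b2 and Atp6v1a. Atp6v1b2, the B subunit of the catalytic head, had 266, 236 and 276 FPKM in HFD fat, against 18.3, 61.2 and 58.7 in ND fat, and rose by 2.64 ± 0.50 (adjusted p = 0.0212) and by 2.09 ± 0.27 without ND 1 (adjusted p = 0.00168). Atp6v1a, the A subunit with the catalytic site, rose by 2.44 and by 1.81 without ND 1, and Atp6v1c1, a regulatory stalk subunit, by 1.32 and 1.13. Without ND 1, Atp6v1d, Atp6v1f and Atp6v1g1 also rose, by 0.62, 0.72 and 0.61, and over 9 libraries Atp6v1d did not pass, at 0.55 (adjusted p = 0.212). Atp6v1e1 (0.60, adjusted p = 0.0529) and Atp6v1h (0.50, adjusted p = 0.0615) did not pass without ND 1, nor over 9 libraries, at 0.96 and 0.95. For Atp6v1f and Atp6v1g1 the ND 1 library held 322 and 192 FPKM, above all HFD libraries, so their changes were -0.06 and -0.07 over 9 libraries. In total, 12 of 14 pump subunits were called without ND 1 and 7 of 14 with it.

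The pair of accessory proteins of the pump had lower values in ND 1 than in the other ND libraries. Atp6ap1, which helps assemble the V0 sector, had 182, 173 and 199 FPKM in HFD fat, against 31.8, 107 and 111 in ND fat. Atp6ap2, known also as the prorenin receptor, had 96.3, 96.1 and 109 in HFD fat, against 3.84, 70.4 and 51.3 in ND fat. Over 9 libraries neither passed (adjusted p = 0.168 and 0.26), and without ND 1 both rose, by 0.75 ± 0.15 and 0.73 ± 0.19.

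Among 11 cathepsins, 7 rose in HFD fat over 9 libraries and 8 without ND 1. Ctss, an elastase-like cysteine protease of antigen-presenting cells, had 902, 719 and 913 FPKM in HFD fat, against 5.26, 45.9 and 34.3 in ND fat, and rose by 5.27 ± 0.76 (adjusted p = 0.00859) and by 4.37 ± 0.42 without ND 1 (adjusted p = 0.00118). Ctsk, the collagen-degrading protease of osteoclasts, had 257, 193 and 291 FPKM in HFD fat, against 1.12, 13.6 and 11.9 in ND fat. It rose by 5.05 ± 0.78 (adjusted p = 0.0108) and by 4.15 ± 0.50 without ND 1. For both proteases every HFD library lay above every ND library.

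The changes of the other called cathepsins were smaller. Ctsd, the aspartic protease of the lysosome, had 3201, 2561 and 3453 FPKM in HFD fat, against 378, 826 and 753 in ND fat, a rise of 2.30 ± 0.38 and of 1.95 ± 0.19 without ND 1. Ctsz and Ctsl, both cysteine proteases, rose by 2.80 and 2.49, and by 2.22 and 1.93 without ND 1. Ctsa, which protects beta-galactosidase and neuraminidase, and the aminopeptidase Ctsh rose by 2.42 and 1.56, and by 1.79 and 1.37 without ND 1. Ctsb, an abundant cysteine protease, had 1549, 1288 and 1816 FPKM in HFD fat, against 36.9, 471 and 380 in ND fat, and was called without ND 1 (1.86 ± 0.24) but not with it (3.02 ± 0.87, adjusted p = 0.1).

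The remaining 3 cathepsins were not called in either fit. Ctsf, a widely expressed cysteine protease, had 32.5, 30.8 and 31.9 FPKM in HFD fat, against 29.6, 43.8 and 40.8 in ND fat, and was the only member whose HFD libraries all lay below ND 2 and ND 3 (-0.40 ± 0.16, adjusted p = 0.092, and -0.24 over 9 libraries). Ctso had 25.5, 28.7 and 28.2 FPKM in HFD fat, against 2.24, 33.0 and 28.2 in ND fat (-0.15 ± 0.13 without ND 1, adjusted p = 0.423, and 0.95 ± 0.80 over 9 libraries). Ctsc, which activates serine proteases of leukocytes, had a difference of 0.38 ± 0.13 without ND 1 (adjusted p = 0.0671) and of 1.66 ± 0.93 over 9 libraries (adjusted p = 0.31).

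**Figure D2:**
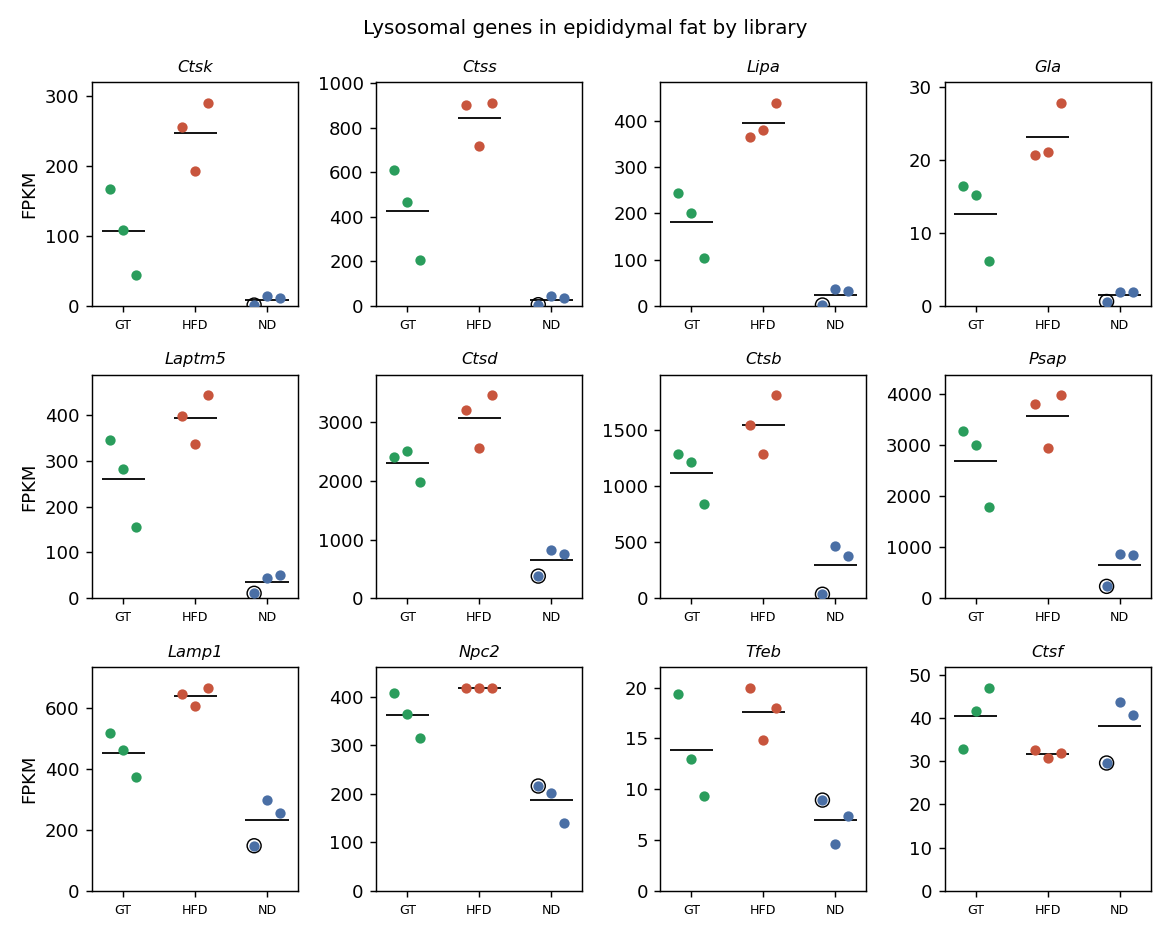
FPKM of 12 lysosomal genes in each fat library, for GT, HFD and ND from left to right, on linear axes that start at 0; points are libraries, lines are means of 3 and the ring marks ND 1. The HFD libraries lie above the ND libraries in every panel but that of Ctsf, where they lie at 30.8 to 32.5 FPKM and ND 2 and ND 3 at 43.8 and 40.8.

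Of 9 hydrolases and activators, 5 rose over 9 libraries and 7 without ND 1. Lipa, the acid lipase that splits cholesteryl esters and triglycerides in the lysosome, had 365, 379 and 439 FPKM in HFD fat, against 1.82, 36.4 and 31.2 in ND fat. It rose by 4.71 ± 0.92 (adjusted p = 0.0245) and by 3.51 ± 0.32 without ND 1 (adjusted p = 0.00104). Gla, the alpha-galactosidase that removes galactose from globotriaosylceramide, had 20.7, 21.2 and 27.9 FPKM in HFD fat, against 0.595, 1.97 and 1.97 in ND fat, a rise of 3.32 ± 0.41 and of 3.02 ± 0.36 without ND 1. For both genes the HFD libraries were all above the ND libraries.

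Psap, the precursor of the saposins that help hydrolases reach sphingolipids, was the most abundant of the 47 genes in HFD fat, at 3790, 2930 and 3970 FPKM, against 234, 872 and 846 in ND fat. It rose by 2.66 ± 0.56 and by 2.04 ± 0.27 without ND 1. Hexa, the alpha subunit of beta-hexosaminidase, and Glb1, the lysosomal beta-galactosidase, rose by 1.70 and 0.95, and by 1.86 and 0.92 without ND 1. The sialidase Neu1 and the acid ceramidase Asah1 rose without ND 1, by 0.78 and 0.98, and did not pass with it (adjusted p = 0.104 and 0.226). Gaa, which degrades lysosomal glycogen, and the acid sphingomyelinase Smpd1 were not called, at 0.06 ± 0.16 and 0.14 ± 0.15 without ND 1 and at 0.48 ± 0.36 and 0.63 ± 0.40 over 9 libraries.

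Of 8 genes for membrane and sterol transport proteins, 3 rose over 9 libraries and 6 without ND 1. Laptm5, a lysosomal membrane protein of blood cells, had 398, 337 and 443 FPKM in HFD fat, against 11.02, 44.9 and 49.97 in ND fat, and rose by 3.69 ± 0.58 (adjusted p = 0.0111) and by 3.02 ± 0.31 without ND 1. Npc2, the soluble protein that hands cholesterol to NPC1, rose by 1.19 and 1.31, and the abundant glycoprotein Lamp1 by 1.51 and 1.21. Cd63, a tetraspanin of late endosomes, Scarb2, the receptor that delivers beta-glucocerebrosidase, and Lamp2, needed for fusion with autophagosomes, rose without ND 1, by 1.36, 0.65 and 0.50. Over 9 libraries these 3 did not pass, at 1.18, 1.54 and 1.33 (adjusted p = 0.0934, 0.242 and 0.264). The cholesterol exporter Npc1 (0.57 ± 0.20, adjusted p = 0.066) and the calcium channel Mcoln1 (0.56 ± 0.20, adjusted p = 0.0777) did not pass without ND 1, nor over 9 libraries, at 1.5003 ± 0.70 and 0.61 ± 0.24.

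Of the TFE factors, Tfeb and Mitf had lower FPKM than Tfe3 in HFD fat. Tfeb had 20.0, 14.9 and 18.01 FPKM in HFD fat, against 8.93, 4.63 and 7.34 in ND fat, and rose by 1.43 ± 0.29 without ND 1 (adjusted p = 0.0091), while 1.25 ± 0.32 over 9 libraries missed the threshold (adjusted p = 0.0669). Mitf had 11.8, 12.8 and 16.4 FPKM in HFD fat, against 0.392, 6.24 and 5.93 in ND fat, and rose by 1.04 ± 0.24 without ND 1 (adjusted p = 0.0137), but not over 9 libraries (1.82 ± 0.61, adjusted p = 0.146). Tfe3 had 30.0, 28.0 and 34.8 FPKM in HFD fat, against 6.43, 16.4 and 25.0 in ND fat. It did not pass, at 0.58 ± 0.20 without ND 1 (adjusted p = 0.0647) and 1.09 ± 0.43 over 9 libraries. For all 3 genes, each HFD library exceeded each ND library.

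Promoters of some of these genes carry the E-box core to which TFE factors bind. Such sequences are known from promoters of many lysosomal genes, and the members were listed as lysosomal genes. The motif GTCACGTG, searched on both strands, holds the shorter CACGTG within it. RefSeq promoter windows (GRCm38.p6, 250 bases before to 50 after the start site) were matched for 38 of the 47 genes, and 8 of the 38 (21.1%) held GTCACGTG, against 689 of 27025 genes in that table (2.55%). CACGTG was found in 13 of 38 (34.2%), against 8.09% of genes. The stretches below are 80 bases long, run 5′ to 3′ on the strand of the gene, and show the match in capitals, as GTCACGTG or its reverse complement CACGTGAC. They lie at chr4:117887330-117887409 (minus strand) for Atp6v0b, chr8:105566062-105566141 (minus strand) for Atp6v0d1, chr2:164833706-164833785 (plus strand) for Ctsa, chr7:142387882-142387961 (minus strand) for Ctsd, chrX:134601158-134601237 (minus strand) for Gla, chr9:114400992-114401071 (plus strand) for Glb1, chr8:13159081-13159160 (plus strand) for Lamp1 and chr8:3500438-3500517 (plus strand) for Mcoln1.
Atp6v0b: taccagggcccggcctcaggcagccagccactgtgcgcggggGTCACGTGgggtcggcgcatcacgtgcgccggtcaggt
Atp6v0d1: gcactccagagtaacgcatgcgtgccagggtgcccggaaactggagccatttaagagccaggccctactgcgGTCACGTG
Ctsa: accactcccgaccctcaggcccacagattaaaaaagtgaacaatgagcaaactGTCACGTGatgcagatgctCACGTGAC
Ctsd: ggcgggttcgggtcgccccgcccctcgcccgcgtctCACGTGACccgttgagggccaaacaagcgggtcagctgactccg
Gla: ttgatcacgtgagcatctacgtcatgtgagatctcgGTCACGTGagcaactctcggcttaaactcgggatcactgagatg
Glb1: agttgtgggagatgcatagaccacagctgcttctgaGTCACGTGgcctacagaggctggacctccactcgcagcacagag
Lamp1: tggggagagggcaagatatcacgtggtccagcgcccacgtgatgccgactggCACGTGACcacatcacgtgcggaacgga
Mcoln1: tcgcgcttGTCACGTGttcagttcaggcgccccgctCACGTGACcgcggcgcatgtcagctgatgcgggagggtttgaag
Without ND 1, 7 of these 8 genes were called higher in HFD fat, Mcoln1 being the exception, where 37 of 47 members were called. Over 9 libraries 6 of the 8 were called, with Atp6v0d1 and Mcoln1 not passing. A match is a run of letters, and neither its binding nor its part in the diet changes was tested.

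Most macrophage markers rose with these genes in fat. The 17-gene list summed to 3874 to 5427 FPKM in HFD fat and to 71.4 to 599 in ND fat, and Clec4f, a marker of liver macrophages, was at 0 in 8 of 9 fat libraries. Of 15 markers tested, 9 rose over 9 libraries and 11 without ND 1. Mertk, Vsig4 and Marco did not pass without ND 1, at 0.39, 0.92 and 0.39. Cd163 went the other way there (-0.55 ± 0.20, adjusted p = 0.0818 by limma), with all HFD libraries below ND 2 and ND 3. Over 9 libraries Cd163 was at 0.50 and did not pass. Cd68, itself a lysosomal membrane protein of macrophages, had 532, 398 and 532 FPKM in HFD fat, against 7.19, 27.0 and 19.9 in ND fat. The adipocyte sum was 17647 to 20280 in HFD fat and 25507 to 37510 in ND 2 and ND 3, and 8 of 10 adipocyte markers fell and 1, leptin (Lep), rose without ND 1, while over 9 libraries 1 fell, adipsin (Cfd), and 0 rose. The part of cell content in the lysosomal changes was not tested.

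The rise on HFD rested on few libraries when ND 1 was kept. Without HFD 3 the count of called members over 9 libraries was 1, Atp6v0d2, and it was 6 without HFD 1 and 6 without HFD 2, 8 without GT 2 and 13 without GT 1. Without ND 1, 27 of the 37 calls held in every alternative run, Atp6v0d2, Ctss, Ctsk, Lipa, Gla and Laptm5 among them. Transcript length moved with the HFD changes over 9 fat libraries. With genes split by length into 3 classes, the median change was -0.16 in the shortest class and 0.28 in the longest. Without ND 1 these medians were 0.05 and -0.03.

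Green tea extract was compared with the high-fat diet alone to ask how far it alters the response to that diet. In fat 0 of 47 members were called by limma between GT and HFD in either fit, where 0% of all genes were called each way over 9 libraries, and 0.894% higher and 0.801% lower without ND 1. At an unadjusted p under 0.05 there was 1 member over 9 libraries (3.39% of all genes) and 29 without ND 1 (22.6% of all genes). All GT libraries lay below all HFD libraries for 25 members and above them for 2, where 23.5% and 11.6% of all genes did so over 9 libraries, and 24.5% and 12.4% without ND 1. The median of the members was -0.42, and that of all genes was -0.14 over 9 libraries and -0.12 without ND 1. FPKM summed to 9283 to 14700 in GT fat and 14973 to 19028 in HFD fat.

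None of the largest differences between GT and HFD passed the threshold, and the adjusted p of each gene named next was 1 over 9 libraries. Atp6v0d2 had 120, 91.9 and 35.6 FPKM in GT fat, against 165, 164 and 196 in HFD fat (-1.24 ± 0.40, adjusted p = 0.142 without ND 1). Ctsk had 168, 108 and 44.8 FPKM in GT fat, against 257, 193 and 291 in HFD fat (-1.37 ± 0.45, adjusted p = 0.144). Lipa had 243, 200 and 102 FPKM in GT fat, against 365, 379 and 439 in HFD fat (-1.20 ± 0.29, adjusted p = 0.077). The groups did not overlap in these 3 genes, and GT 3 was the lowest library of the GT group in each.

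Ctss had 609, 466 and 206 FPKM in GT fat, against 902, 719 and 913 in HFD fat (-1.11 ± 0.37, adjusted p = 0.146). Gla had 16.5, 15.2 and 6.195 FPKM in GT fat, against 20.7, 21.2 and 27.9 in HFD fat (-0.92 ± 0.32, adjusted p = 0.153). The 2 members with every GT library above every HFD library were Ctsf, at 32.7, 41.5 and 47.01 FPKM in GT fat against 32.5, 30.8 and 31.9 in HFD fat, and Gaa, at 56.6, 67.0 and 71.9 against 53.7, 49.2 and 52.8. Pump subunits spanned -1.24 for Atp6v0d2 to -0.02 for Atp6v0e, and 9 of 14 had GT libraries all below HFD.

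The GT libraries differed among themselves. GT 3 was the lowest of the 3 GT fat libraries for 43 of 47 members, and GT 1 was the highest for 38. The macrophage sum was 1437 to 3466 FPKM in GT fat and 3874 to 5427 in HFD fat, with 1437 in GT 3, and the adipocyte sum was 25339 to 30034 in GT fat and 17647 to 20280 in HFD fat. The part of these in the lysosomal values was not tested. Without GT 1, 2 members were called in the fit without ND 1.

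**Figure D3:**
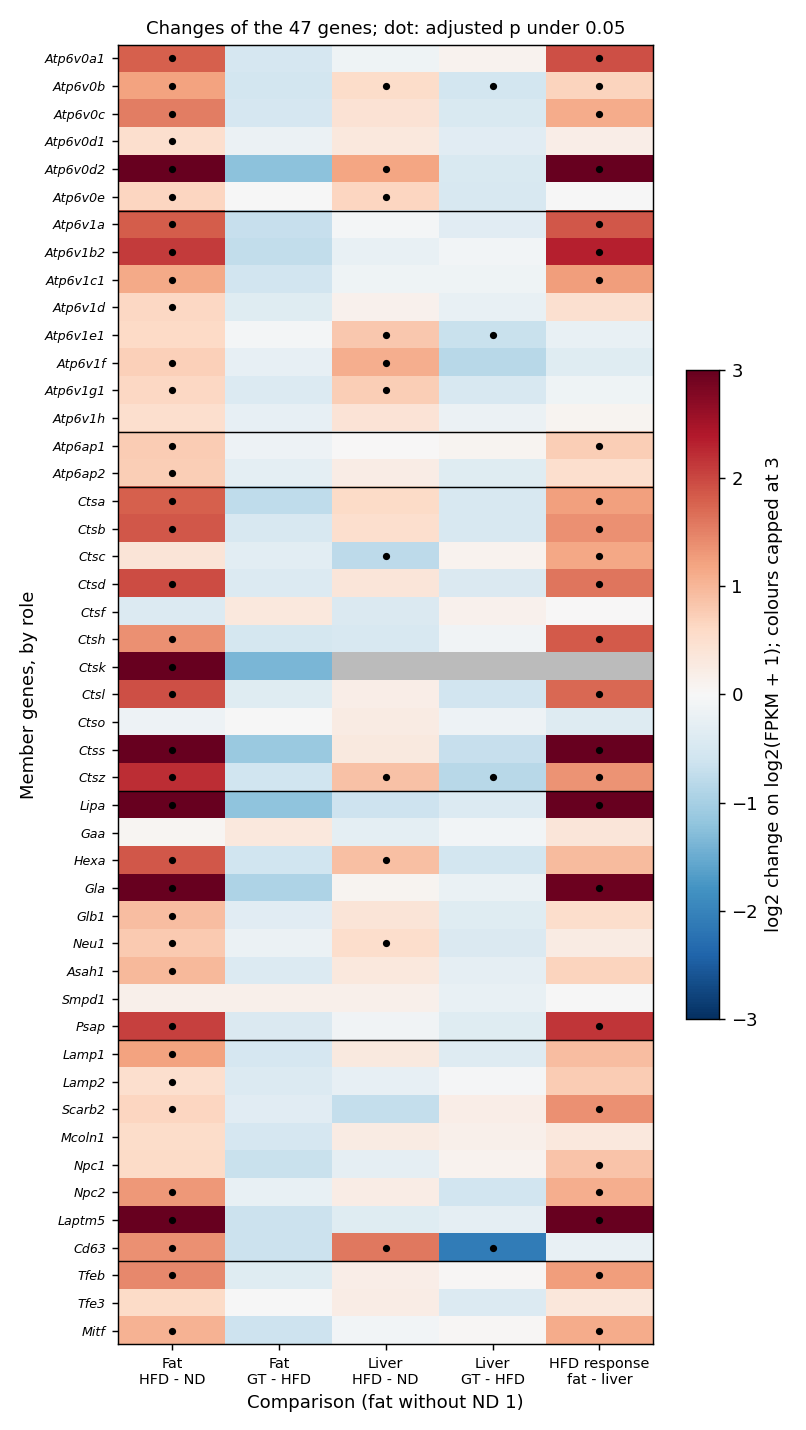
Log2 change of FPKM + 1 for the 47 genes, grouped by role down the page, for HFD minus ND and GT minus HFD in fat (without ND 1) and in liver, and for the HFD response in fat minus that in liver; colours are capped at 3, grey cells were not tested and dots mark an adjusted p under 0.05. HFD against ND holds 37 dots in fat and 11 in liver, GT against HFD holds 0 in fat and 4 in liver, and the difference between tissues holds 25.

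Against ND, GT fat still held higher levels of part of the list. Over 9 libraries 1 member was called, Atp6v0d2 (4.89 ± 0.43, adjusted p = 0.00856), where 0.61% of all genes were called higher and 0.0291% lower. Without ND 1, 21 rose and 0 fell, against 7.5% and 3.16% of all genes, with a median of 0.62 and of -0.05 for all genes. Ctss, Ctsk, Laptm5, Lipa and Gla rose by 3.26, 2.78, 2.36, 2.31 and 2.097, and 5 of 14 pump subunits were called, Atp6v0a1, Atp6v0c, Atp6v0d2, Atp6v1a and Atp6v1b2. Leaving out GT 2 brought the counts to 0 over 9 libraries and 6 without ND 1. The calls of Atp6v0d2, Atp6v0a1, Ctsd, Ctss and Laptm5 without ND 1 held in every alternative. GT against HFD and HFD against ND share the HFD libraries, and GT against ND shares the ND libraries with HFD against ND.

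In liver, 11 members were called on HFD, 6 of them pump subunits, of which 3 lost the call with a correction for transcript length and GC content. Of 46 members tested, 10 rose on HFD against ND and 1 fell, where 11.9% of all genes were called higher and 6.67% lower, and the median was 0.23 for the members and -0.02 for all genes. Ctsk stayed out of the liver fits, at 0 to 0.842 FPKM in the 9 liver libraries. Summed over 14 pump subunits, FPKM was 533 to 577 in HFD liver and 376 to 384 in ND liver.

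The 6 pump subunits that rose in HFD liver were Atp6v0b (0.56), Atp6v0d2 (1.18), Atp6v0e (0.65), Atp6v1e1 (0.82), Atp6v1f (1.08) and Atp6v1g1 (0.75). Atp6v1e1, a stalk subunit, had 84.1, 94.95 and 92.7 FPKM in HFD liver, against 49.7, 50.6 and 52.4 in ND liver (0.82 ± 0.16, adjusted p = 0.00773). Atp6v1g1, its partner in the stalk, had 37.4, 44.1 and 39.6 FPKM in HFD liver, against 22.5, 24.2 and 24.2 in ND liver (0.75 ± 0.13, adjusted p = 0.00645). For both genes the groups did not overlap, and these were the only calls of the 11 that held with each library left out in turn. Of the 11 calls, 0 held in every alternative run. Atp6v1e1 did not pass with equal FPKM totals, at 0.60, and Atp6v1g1 did not pass with the length and GC correction, at 0.30, with adjusted p of 0.001065 to 0.0687 and 0.00178 to 0.116 over their alternatives. Atp6v0d2 had 3.27, 2.92 and 3.32 FPKM in HFD liver, against 0.304, 1.91 and 0.642 in ND liver (1.18 ± 0.27, adjusted p = 0.0147), a low level beside 164 to 196 FPKM in HFD fat.

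**Figure D4:**
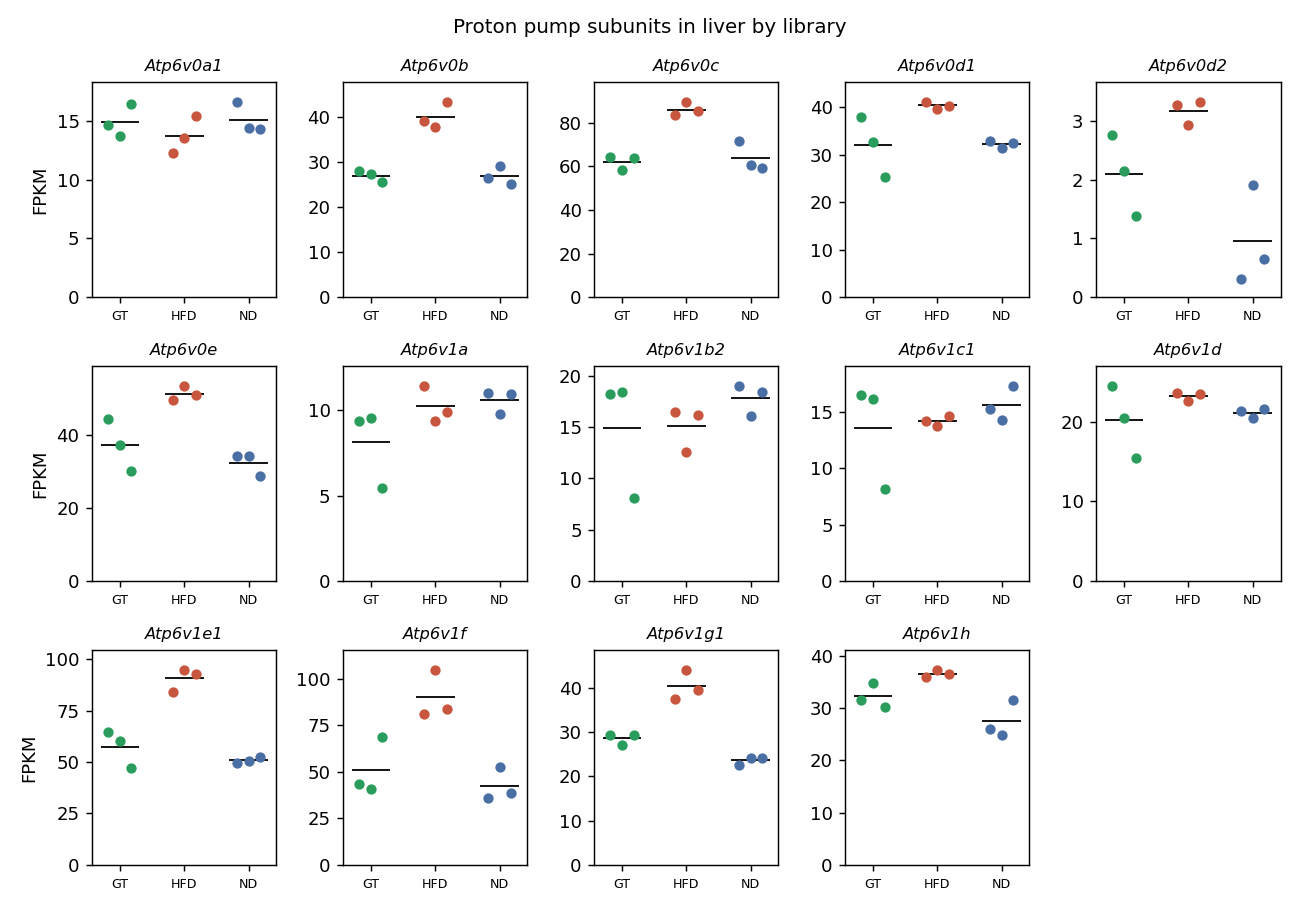
FPKM of the 14 pump subunits in each liver library, for GT, HFD and ND from left to right, on linear axes that start at 0; points are libraries and lines are means of 3. Atp6v1e1 lies at 84.1 to 94.95 FPKM in HFD liver, at 47.0004 to 64.5 in GT liver and at 49.7 to 52.4 in ND liver, and Atp6v0a1 overlaps between all diets.

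Outside the pump, Cd63 had 10.1, 20.0 and 24.1 FPKM in HFD liver, against 3.27, 7.61 and 4.82 in ND liver (1.59 ± 0.33, adjusted p = 0.0108). Ctsz, Hexa and Neu1 rose by 0.88, 0.91 and 0.54. Ctsc fell to 14.2, 11.5 and 12.7 FPKM in HFD liver, against 24.5, 19.9 and 23.5 in ND liver (-0.78 ± 0.22, adjusted p = 0.0358). Lipa had 91.0, 62.9 and 92.3 FPKM in HFD liver, against 133, 107 and 139 in ND liver, and did not pass (-0.63 ± 0.39, adjusted p = 0.27). Macrophage markers summed to 93.8 to 127 FPKM in HFD liver and 87.8 to 112 in ND liver, and 0 of 13 tested were called by limma, with 4 at an unadjusted p under 0.05. Cd63 has a processed copy among the genes of the table, and how reads were shared with it was not tested.

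Transcript length moved with the liver HFD changes over all genes. Genes were split by length into 3 classes. In the shortest class 25.5% of genes were called higher and 2.55% lower (median 0.28), and in the longest class 3.23% and 12.5% (median -0.24). With a correction for length and GC content, Atp6v1e1, Atp6v0d2, Atp6v0e, Neu1, Cd63 and Ctsc were still called. Atp6v1f, Atp6v1g1, Ctsz and Hexa no longer passed, at 0.39, 0.30, 0.47 and 0.69, and Atp6v0b turned to -0.06. The count of called members was 2 without ND 1, without ND 3 or without HFD 2, 6 without HFD 3 and 21 without GT 3.

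Between GT and HFD in liver, 4 of 46 members fell and 0 rose, where 4.22% of all genes were called lower and 1.14% higher. Transcript length moved with these changes too. In the shortest class 9.34% of genes were called lower (median -0.25), and in the longest class 1.36% (median 0.13). With the length and GC correction fewer than 4 members were called. Cd63 fell to 4.26, 2.30 and 3.37 FPKM in GT liver, against 10.1, 20.0 and 24.1 in HFD liver (-2.09 ± 0.33, adjusted p = 0.00968). Ctsz had 137, 109 and 111 FPKM in GT liver, against 173, 261 and 213 in HFD liver (-0.84 ± 0.19, adjusted p = 0.0373). The lowest HFD library of either gene was above the highest GT library. Atp6v1e1 had 64.5, 60.4 and 47.0004 FPKM in GT liver, against 84.1, 94.95 and 92.7 in HFD liver (-0.66 ± 0.16, adjusted p = 0.0403). Atp6v0b had 28.1, 27.4 and 25.5 FPKM in GT liver, against 39.1, 37.7 and 43.4 in HFD liver (-0.55 ± 0.14, adjusted p = 0.0454). In each of these 4 genes the groups did not overlap, and all GT libraries lay below all HFD libraries for 20 members in total (18.2% of all genes). Of the 4 calls, 0 held in every alternative run and 0 held with each library left out in turn.

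The GT calls in liver were fewer or more as single libraries were left out, 0 without HFD 2, 8 without GT 3 and 1 or 2 without each of the others. GT 3 was the lowest of the 3 GT liver libraries for 34 of 47 members. Pump subunits summed to 375 to 430 FPKM in GT liver and 533 to 577 in HFD liver, with 9 of 14 not overlapping. Of 13 macrophage markers tested, 3 fell and 0 rose, with a median of -0.26, and Cd163 and Mertk were at 0.01 and -0.01. The 3 were Cd68, Lyz2 and Cd14, which fell by 1.17, 1.02 and 0.93 (adjusted p = 0.0484, 0.0353 and 0.0375), and the macrophage sum was 57.2 to 85.7 FPKM in GT liver and 93.8 to 127 in HFD liver. Their part in the lysosomal changes was not tested. Against ND, GT liver had 0 of 46 members called by limma, with 7 at an unadjusted p under 0.05, where 16.5% of all genes had one, and 1.27% of all genes were called higher and 1.33% lower.

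Fat and liver differed in which lysosomal genes they expressed most. On HFD, 40 of 46 members were higher in fat and 0 lower, where 62% of all genes were called higher in fat and 15.7% lower. The median was 1.91 for members and 0.76 for all genes. Quantile scaling moved the median of all genes to -0.0013 and gave 37 members higher and 3 lower. Laptm5, Ctss, Atp6v0d2 and Cd63 were higher in HFD fat by 6.18, 5.50, 5.40 and 5.15. Psap had 3790, 2930 and 3970 FPKM in HFD fat, against 244, 207 and 234 in HFD liver.

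On ND, 32 of 46 members were higher in fat and 4 lower, where 59.7% of all genes were called higher and 12.1% lower, and the median was 0.92 for members and 0.70 for all genes. The 4 lower in fat were Lipa (-1.87), Ctsh (-1.85), Lamp2 (-1.22) and Npc1 (-0.79). Ctsh had 48.9 and 54.3 FPKM in fat ND 2 and ND 3, against 166, 186 and 216 in ND liver. On HFD it had 150, 132 and 125 FPKM in fat and 164, 126 and 120 in liver, where the groups overlapped. Lipa was lower in ND fat than in ND liver and higher in HFD fat than in HFD liver, by 2.27 ± 0.37. Atp6v0d2 did not differ beyond its spread between the tissues on ND (0.31 ± 0.39, adjusted p = 0.482).

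**Figure D5:**
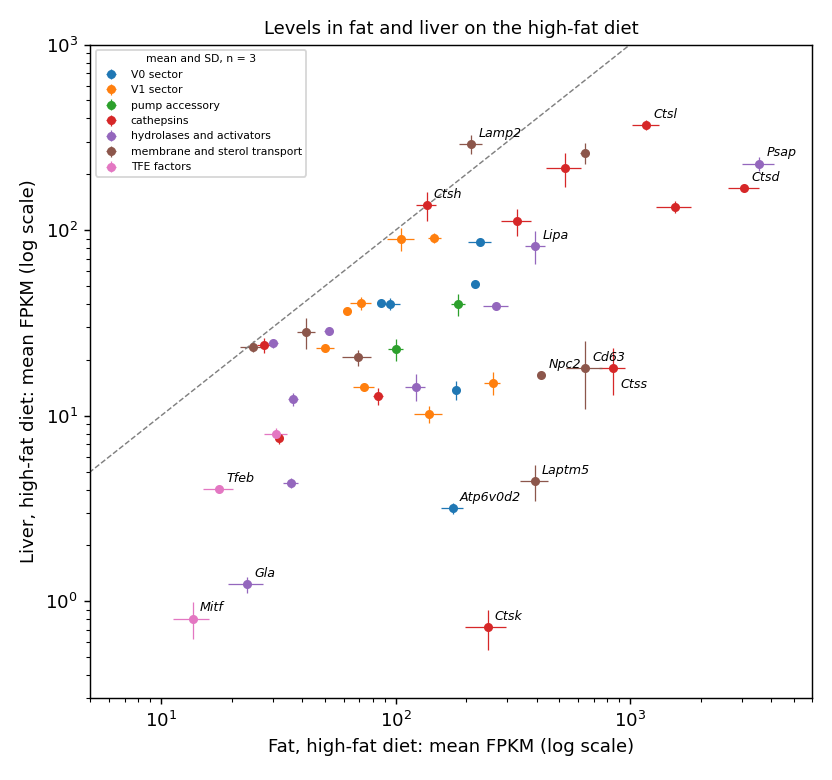
Mean FPKM of each of the 47 genes in HFD fat (horizontal) and HFD liver (vertical), on log axes, with SD bars (n = 3), colours by role and a dashed line at equal levels. Laptm5, Ctss, Atp6v0d2 and Cd63 lie far to the fat side of the line, Ctsh lies on it and Lamp2 lies to the liver side.

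The response to HFD itself was tested between tissues in 17 libraries, fat ND 1 left out. For 25 of 46 members the change on HFD was higher in fat than in liver and for 0 it was lower, where 11.9% and 9.69% of all genes were called. Atp6v0d2 led with a difference of 5.08 ± 0.52 (adjusted p = 2.66e-05), before Lipa at 4.13 ± 0.56, Ctss at 4.07 ± 0.48, Laptm5 at 3.37 ± 0.41 and Gla at 2.93 ± 0.37. Of 14 pump subunits 7 were called. Atp6v0e, Atp6v1e1, Atp6v1f and Atp6v1g1, each called higher in HFD liver, had differences of -0.01, -0.22, -0.36 and -0.13 that did not pass. The liver calls of Atp6v1f and Atp6v1g1 were lost with the length and GC correction. That correction was not run on the fit of both tissues, so the part of transcript length in these differences was not tested. For the response to GT against HFD, 0 of 46 members differed between tissues by limma, with 7 at an unadjusted p under 0.05, where 22.6% of all genes had one, and 2.78% were called higher and 1.09% lower.

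Other genes of the organelle and of autophagy were listed from general knowledge. In HFD fat without ND 1, 28 of 46 other lysosomal genes rose and 2 fell (17.8% and 9.62% of all genes), and over 9 libraries 7 rose and 0 fell (5.28% and 0.371% of all genes). Among those called in both fits, Lgmn, the asparagine endopeptidase, had 427, 328 and 450 FPKM in HFD fat, against 33.7, 54.3 and 57.5 in ND fat (2.81 ± 0.34, and 3.05 ± 0.39 over 9 libraries). Gusb, the beta-glucuronidase, rose by 2.79 ± 0.22 and Man2b1, the alpha-mannosidase, by 1.47 ± 0.16, and over 9 libraries by 3.41 and 1.93. Laptm4b and the sorting receptor Sort1 fell by 0.69 and 0.68 without ND 1, and did not pass over 9 libraries, at -0.47 and -0.36 (adjusted p = 0.338 and 0.512), where the groups overlapped. Of 5 other V-ATPase isoforms tested, Tcirg1, the a3 subunit of the osteoclast pump, rose with 217, 159 and 172 FPKM in HFD fat, against 13.8, 21.3 and 28.7 in ND fat (2.82 ± 0.40, adjusted p = 0.00281, and 3.09 ± 0.43 over 9 libraries, adjusted p = 0.00807). Atp6v0e2, another form of the e subunit, fell by 1.06 ± 0.17 without ND 1 and did not pass over 9 libraries (-0.52 ± 0.44). Of 15 autophagy genes 2 rose without ND 1, Vps18 (1.05) and Uvrag (0.69), a share below the 17.8% of all genes, and over 9 libraries 1 rose, Vps18 (1.22), with Uvrag at an adjusted p of 0.208.

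Between GT and HFD in fat without ND 1, Atp6v0e2 rose by 0.94 ± 0.15 (adjusted p = 0.0424), and it did not pass over 9 libraries (0.94 ± 0.44). In HFD liver, 8 of 43 other lysosomal genes rose and 2 fell against ND, where 11.9% and 6.67% of all genes were called. Acp5, the tartrate-resistant phosphatase, rose by 1.05 ± 0.15 and the peptidase Dpp7 by 1.01 ± 0.17, while the acid phosphatase Acp2 fell by 0.46. Of 15 autophagy genes 3 rose and 0 fell, Atg7, Gabarap and Map1lc3a, by 1.00, 0.86 and 0.63. Between GT and HFD in liver, where 4.22% of all genes fell, 1 of 43 and 1 of 15 genes of these lists did. Arsa fell by 0.66 ± 0.15 and the autophagy receptor Sqstm1 by 0.68 ± 0.14 (adjusted p = 0.0288). The length and GC correction was read for the members only, so the part of transcript length in these liver calls was not tested.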

How the data were processed

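FPKM values were analysed as deposited by the authors, in 1 table of 18 libraries with 0 columns of no sample and 0 pairs of identical libraries. Per the labels' protocols, polyA libraries were made with the Illumina TruSeq kit, and the submitters' processing notes name Cufflinks 2.1.1, STAR 2.4.0 and CASAVA 1.8.2. The genome build and the use of strand are not given in the sources used here, and read depth was not used. GENCODE M21 gave symbols to 22671 of the 23474 identifiers and none to 803. By that annotation, exons of 7 members overlap another gene of the table (Atp6v1h, Ctsa, Ctsb, Ctsz, Glb1, Lamp1 and Npc1), so reads of the pair may not be separable.

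Values were tested as log2(FPKM + 1) in limma 3.58.1 (R 4.3.3), which was tested on simulated data. There, for HFD against ND, the fit over 9 fat libraries missed most changed genes, and that without ND 1 recovered most of them. The simulated noise was drawn for each gene apart, from the spread of each fit. It held no shift of many genes in 1 library, such as that of ND 1, so it cannot show which fit is nearer the truth. Genes with 1 FPKM or more in 3 or more libraries of a fit were tested, namely 13762 genes in fat, 12859 in fat without ND 1, 10670 in liver and 9957 in the fit of both tissues, and 47, 47 and 46 members in the first 3. Each tissue was fitted with a mean per diet and all 3 diets, and tissues were compared in 17 libraries. Adjustment was by Benjamini-Hochberg over all genes of a contrast, at 0.05. All 47 members were open to naming, with up to 4 called genes each way of every other list, and Tcirg1 in any case. Some genes of those other lists are not reported here. The members and lists were chosen with earlier results of these data known. Same-numbered libraries did not deviate together throughout, with correlations over 0.1 in 6 of 9 pairs within fat, 4 of 9 within liver and 2 of 9 between tissues, so the numbers were not taken to pair samples. Repeats used an added 0.1, no filter, equal FPKM totals, quantile scaling, the replicate block, only the compared diets, single libraries or sets of them left out and, chosen after seeing the data, a correction for length and GC content. Promoter windows are from RefSeq (GRCm38.p6). Python 3.11.15 (pandas 2.3.3, NumPy 2.4.6, matplotlib 3.10.9) made the tables and figures.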

Additional observations from a re-analysis of the deposited data

Results flagged for a closer look

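The change on HFD against ND was larger in fat than in liver for 25 of the 46 genes tested, Ctsk not being among them. The difference itself was tested, as a limma contrast of contrasts over 17 libraries with fat ND 1 left out. Adjustment was by Benjamini-Hochberg over 9957 genes. In the pump the differences in log2 change were 5.08 for Atp6v0d2, 2.32 for Atp6v1b2, 1.93 for Atp6v0a1, 1.86 for Atp6v1a, 1.26 for Atp6v1c1, 1.11 for Atp6v0c and 0.66 for Atp6v0b, with 0.73 for the accessory gene Atp6ap1. Atp6v0b had the highest adjusted p of the 25, at 0.0485. Transcript length moved with the HFD changes in liver, and the length and GC correction was not run on this contrast. Among cathepsins they were 4.07 for Ctss, 1.85 for Ctsh, 1.72 for Ctsl, 1.59 for Ctsd, 1.36 for Ctsb, 1.34 for Ctsz, 1.23 for Ctsa and 1.16 for Ctsc. Among hydrolases they were 4.13 for Lipa, 2.93 for Gla and 2.15 for Psap. For membrane and sterol transport they were 3.37 for Laptm5, 1.36 for Scarb2, 1.08 for Npc2 and 0.85 for Npc1, and for the TFE factors 1.24 for Tfeb and 1.11 for Mitf. Ctsc fell in HFD liver and did not pass in HFD fat.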

How the results depend on the processing

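Fat calls depended on ND 1 and on single libraries more than on scaling. Called members with 1 library left out ranged from 1 to 37 for HFD against ND, 0 to 0 for GT against HFD and 0 to 21 for GT against ND over 9 fat libraries, and from 29 to 39, 0 to 2 and 6 to 28 without ND 1. In liver they ranged from 2 to 21, 0 to 8 and 0 to 1, and between tissues from 32 to 37 on ND, 39 to 41 on HFD, 21 to 28 for the HFD response and 0 to 5 for the GT response. Where a lone ND library remained, it was assumed to vary like the other groups. With the replicate block, HFD against ND in fat gave 7 calls in place of 22 and GT against ND 0 in place of 1, GT against ND without ND 1 gave 5 in place of 21, and GT against HFD in liver gave 1 in place of 4; no other count moved by over 1.5 times. With only the compared diets in the fit these 4 counts were 6, 0, 7 and 1, and HFD against ND in liver gave 18 in place of 11. Quantile scaling gave 5 for GT against ND in fat, 1 for GT against HFD without ND 1, 2 for GT against HFD in liver and 1 for the GT response. Equal FPKM totals gave 6 for HFD against ND and 1 for GT against HFD in liver, and no filter gave 2 for GT against HFD in liver. The length and GC correction gave 4 for GT against ND in fat and 2 for GT against HFD in liver. Leaving out ND 3 and HFD 1 as well gave 11 for GT against ND in fat, leaving out HFD 2 and GT 3 gave 1 for GT against HFD and 1 for GT against ND in liver, and all 18 libraries gave 15 for the HFD response in place of 25. Single genes changed sign in 8 of the repeats run. With quantile scaling, fat against liver on ND turned to -0.27 for Tfeb, -0.0537 for Atp6v1d, -0.018 for Gaa, -0.0372 for Atp6v0b and -0.0717 for Ctso, and on HFD to -0.0563 for Mcoln1. Over 18 libraries Ctso on ND was -0.51, and with the length and GC correction Atp6v0b in liver on HFD was -0.0599. The cause of these changes was not tested. The number of libraries, 3 a group, limits precision, and the read depth behind a value is unknown.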
